A study of Arabidopsis thaliana with 16 samples.

Results

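The low pH responses of 2 dissected sections of the Arabidopsis root, longitudinal zones 4 and 3, were set against each other. The quantity described is the difference of 2 differences for each probe set: the change between pH 4.6 and pH 5.7 in zone 4, minus the same change in zone 3. A positive value means that the transcript went further up, or less far down, with acid in zone 4 than in zone 3. All 8 arrays of zones 4 and 3 were used, of 16 in the series, and they form 4 groups of 2: zone 4 at pH 4.6, zone 4 at pH 5.7, zone 3 at pH 4.6 and zone 3 at pH 5.7. All seedlings were of the Columbia ecotype, and the roots were 6 days old at harvest. They had grown for 5 days on a standard medium buffered with MES at pH 5.7 and then spent 24 h on transfer medium. Both transfer media held Murashige and Skoog salts, 3 mM DMG, 1% sucrose and 1% agar and differed in their pH alone, so the controls were also moved to new medium with a new buffer. The labels number the zones from 1 to 4 and give no tissue or distance for them, and RNA of each whole section was amplified in 2 cycles before labelling. In such bulk tissue, fewer cells of a type and less RNA per cell cannot be told apart. Nothing in the labels says that the 2 arrays of a group came from separately grown seedlings. A p-value therefore sets a difference against the spread between replicate arrays, estimated over all 16, which may not hold the spread between separate growths.

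As a root cell leaves the growing tip it elongates, then forms root hairs or, in deeper layers, specialised walls. The endodermis, the cell layer around the vascular tissue, first seals its walls with the lignin-based Casparian strip and later coats them with suberin, a polyester that closes the cell to its surroundings. Class III peroxidases, secreted enzymes, couple lignin precursors and stiffen walls, and extracellular pH affects both their action and that of expansins, which loosen walls in acid.

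Of 15951 probe sets tested, 281 (1.76%) had a low pH response in zone 4 that differed from that in zone 3 at an adjusted p under 0.05 in limma. The difference was positive in 104 (0.652%) and negative in 177 (1.11%). Its size ranged from 1.52 to 5.93 on the log2 scale with a median of 2.82, and the median standard error (SE) was 0.54. At unadjusted p under 0.05 there were 2659. The low pH response itself was called in 478 probe sets in zone 4 (3.00%), of which 226 rose and 252 fell, and in 463 in zone 3 (2.90%), of which 317 rose and 146 fell. Rises outnumbered falls in zone 3 under every alternative setting that kept both arrays of each zone 3 group. The size of this excess depended on the arrays in the fit: with zones 3 and 4 alone 149 rose and 133 fell there. In zone 4, 174 rose and 121 fell without the 4 arrays of the series in which plastid-encoded transcripts were high (over 1 log2 unit above the other replicate). With 1 array left out, the count lay between 66 (without zone 4 pH 4.6 replicate 1) and 820 (without zone 3 pH 5.7 replicate 2) in zone 4, and between 92 (without zone 3 pH 4.6 replicate 1) and 1552 (without zone 3 pH 5.7 replicate 1) in zone 3. Across all probe sets tested, the log2 changes of zones 4 and 3, which share no array, had a Pearson correlation of 0.08 and a Spearman correlation of 0.01. The last probe set inside the threshold had an adjusted p of 0.0499 and the first outside one of 0.05.

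The 281 probe sets mostly had values of opposite sign in the 2 zones, and few of them a call in both. In 144 the value was lower at pH 4.6 in zone 4 and higher in zone 3, in 93 it was higher in zone 4 and lower in zone 3, in 23 it was higher in both and in 21 lower in both. Over all 15951 probe sets these counts were 3907, 4051, 4741 and 3252. A large difference between the zones itself favours opposite signs, so the split among the 281 is partly set by how they were called. In 207 of the 281, both arrays at pH 4.6 lay on one side of both arrays at pH 5.7 in zone 4 and on the other side in zone 3, which 1684 of all probe sets tested did (10.6%). Only 11 of the 281 passed the low pH test in both zones, all 11 with opposite signs, while 117 passed in zone 4 alone, 85 in zone 3 alone and 68 in neither. Changes called in both zones with the same sign were found in 51 probe sets, 20 of them up and 31 down, and 0 of these passed the test of the difference. The word opposed therefore fits the signs of the values better than it fits the calls, and for most probe sets the test shows that the 2 responses differed, not that each moved.

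**Figure D1:**
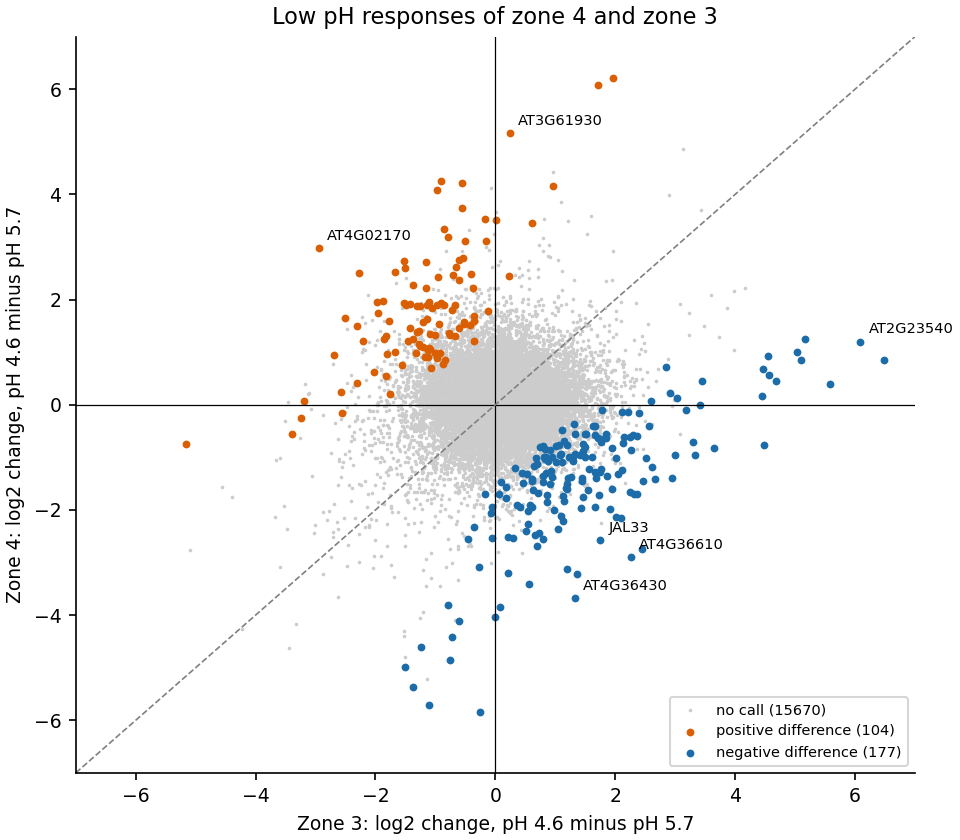
Each point is 1 of 15951 probe sets, with its log2 change at pH 4.6 against pH 5.7 in zone 4 on the vertical axis and in zone 3 on the horizontal axis; the dashed line marks equal changes. Probe sets with a positive difference at adjusted p under 0.05 (104, orange) lie above the line and those with a negative one (177, blue) below it, mostly in the upper left and lower right corners where the 2 zones go in opposite directions.

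The arrays set limits on these values. Log2 values of the 2 replicates correlated at 0.958 and 0.941 in zone 4 at pH 4.6 and pH 5.7, and at 0.927 and 0.839 in zone 3. In zone 3, replicate 2 stood apart at each pH: the mean log2 level of plastid-encoded transcripts was 9.89 against 7.90 in replicate 1 at pH 4.6, and 10.31 against 7.76 at pH 5.7. In zone 4 these means were 8.18 and 7.94 at pH 4.6 and 7.21 and 8.45 at pH 5.7. The 3′ over 5′ signal ratio (log2) of the GAPDH control, a measure of RNA quality, also moved in opposite directions in the 2 zones. It was 5.67 and 4.92 in zone 4 at pH 4.6, against 3.25 and 3.65 at pH 5.7, and 4.13 and 4.44 in zone 3 at pH 4.6, against 5.08 and 5.59 at pH 5.7. The same ratio for ubiquitin was 3.24 and 2.76 against 2.26 and 2.55 in zone 4, and 2.90 and 2.92 against 3.07 and 3.34 in zone 3, while that for actin overlapped between the pH values in both zones. The part of RNA quality in the results was not tested. Of 69 plastid-encoded and 14 mitochondrion-encoded transcripts, 0 passed the limma test of the difference, beside 1.76% of all probe sets tested. In the same test, 2 and 1 were higher at unadjusted p under 0.05.

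The number of calls depended on single arrays. It was 37 and 96 without zone 4 pH 4.6 replicates 1 and 2, 70 and 142 without zone 4 pH 5.7 replicates 1 and 2, 70 and 147 without zone 3 pH 4.6 replicates 1 and 2, and 1257 and 242 without zone 3 pH 5.7 replicates 1 and 2. Of the 281 probe sets, 35 kept their call without any 1 of the 8 arrays. Without the 4 arrays of high plastid mean, 90 were called (49 positive and 41 negative), of which 61 were among the 281. Those 4 arrays include replicate 2 of both zone 3 groups and of zone 4 at pH 5.7, so that fit compares 1 array with 1 in zone 3 and sets 2 arrays against 1 in zone 4. A lone array is there assumed to vary like the other groups, which give the spread, and the same holds with any 1 array left out, so a call kept in such a fit is weak support. Of the 47 genes with a called difference named in the text and the closing section, 29 lost their call without the 4 arrays, with a log2 difference between 66% and 124% of that with all arrays (median 99.3%).

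**Figure D2:**
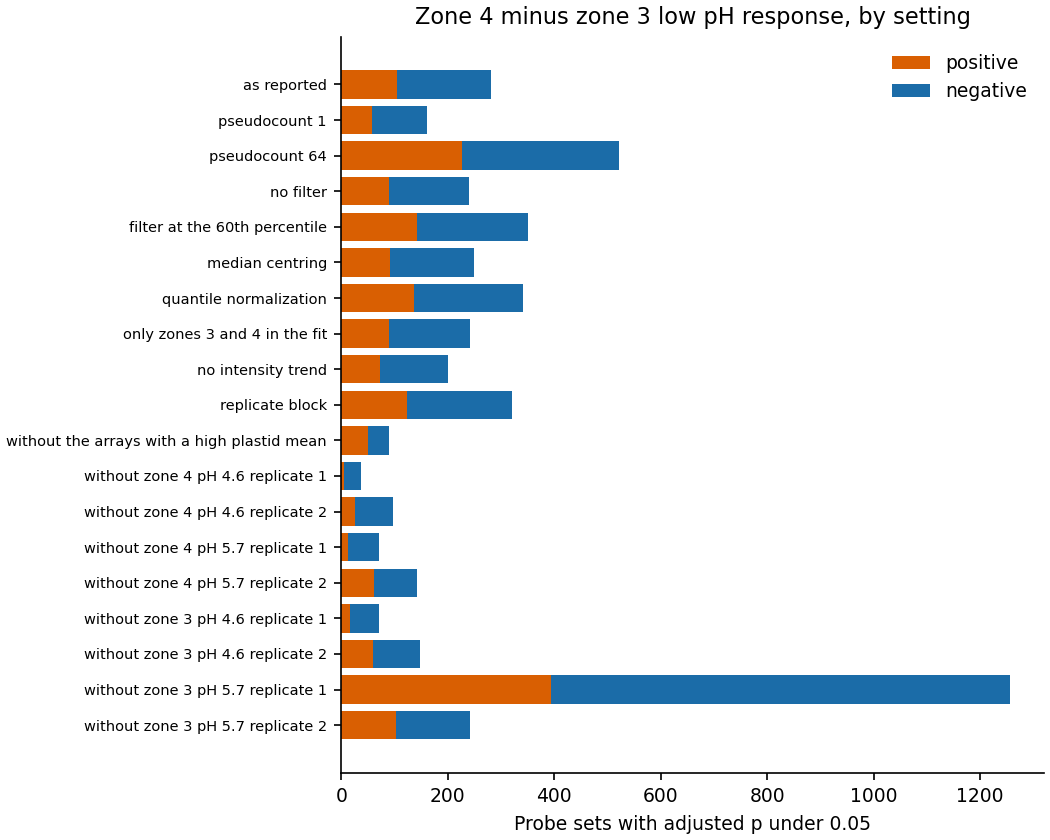
Bars give the number of probe sets with an adjusted p under 0.05 for the difference between the zone 4 and zone 3 low pH responses under each processing setting and with each array left out, split into positive (orange) and negative (blue) differences. The count is 281 as reported, 37 without zone 4 pH 4.6 replicate 1 and 1257 without zone 3 pH 5.7 replicate 1.

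Among the genes called in both zones with opposite signs, 5 had a single gene name. AT4G02170 had the largest difference of all 281. Its MAS5 intensity was 821 and 449 in zone 4 at pH 4.6, against 23.6 and 142 in zone 4 at pH 5.7. In zone 3 it was 36.8 and 179 at pH 4.6, against 797 and 743 at pH 5.7. High and low thus changed places: the gene was high in acid in zone 4 and high at standard pH in zone 3, with no overlap within either zone. The log2 change was 2.98 ± 0.67 in zone 4 and -2.95 ± 0.67 in zone 3, a difference of 5.93 ± 0.95 (adjusted p = 0.00679). Here and below, ± gives the SE from the limma fit over all arrays of the series, with n = 2 arrays a group. AT3G48570, a gene for the gamma subunit of the Sec61 channel that passes proteins into the endoplasmic reticulum, kept within a narrower range. It had 1343 and 1005 in zone 4 at pH 4.6, against 385 and 523 at pH 5.7, and 651 and 678 in zone 3 at pH 4.6, against 1245 and 1639 at pH 5.7. The groups did not overlap within a zone, and the difference was 2.43 ± 0.39 (adjusted p = 0.00679).

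The other 3 named genes went down in zone 4 and up in zone 3. AT4G36610, of the alpha/beta hydrolase family, had 193 and 461 in zone 4 at pH 4.6, against 2380 and 2300 at pH 5.7. In zone 3 it had 1152 and 745 at pH 4.6, against 259 and 125 at pH 5.7. Zone 4 at standard pH was the highest group, and the 2 pH values did not overlap in either zone; the difference was -5.16 ± 0.63 (adjusted p = 0.00118). JAL33 (AT3G16450), a jacalin-related lectin, a carbohydrate-binding protein, had 645 and 466 in zone 4 at pH 4.6, against 3331 and 3388 at pH 5.7. Zone 3 had 865 and 783 at pH 4.6, against 267 and 203 at pH 5.7. The steep difference between the zones at standard pH was gone in acid, where zone 4 lay slightly below zone 3. Its log2 change was -2.58 ± 0.28 in zone 4 and 1.75 ± 0.28 in zone 3 (difference -4.33 ± 0.39, adjusted p = 0.0001). In zone 1 JAL33 also fell (-2.06 ± 0.28, adjusted p = 0.0023), and in zone 2 its change was -0.02 ± 0.28. AT1G20030, of the thaumatin family of pathogenesis-related proteins, had 114 and 170 in zone 4 at pH 4.6, against 608 and 764 at pH 5.7, and 133 and 174 in zone 3 at pH 4.6, against 29.0 and 18.7 at pH 5.7. At pH 4.6 the zones overlapped, while at pH 5.7 they were far apart; the difference was -4.25 ± 0.58 (adjusted p = 0.00299).

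AT4G36610, JAL33 and AT1G20030 kept their call without any 1 array. AT4G02170 and AT3G48570 lost theirs without zone 4 pH 4.6 replicate 1 (adjusted p = 0.063 and 0.067). Without the 4 arrays of high plastid mean, AT1G20030 lost its call (-3.73, adjusted p = 0.0651) and the other 4 kept theirs. The count of 11 opposed probe sets moved between 1 and 49 as single arrays were left out, with 1 in the absence of zone 4 pH 4.6 replicate 1 or zone 3 pH 4.6 replicate 1, and 49 in the absence of zone 3 pH 5.7 replicate 1. It was 3 and 5 without zone 4 pH 5.7 replicates 1 and 2, 5 without zone 4 pH 4.6 replicate 2 and 3 without zone 3 pH 4.6 replicate 2.

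**Figure D3:**
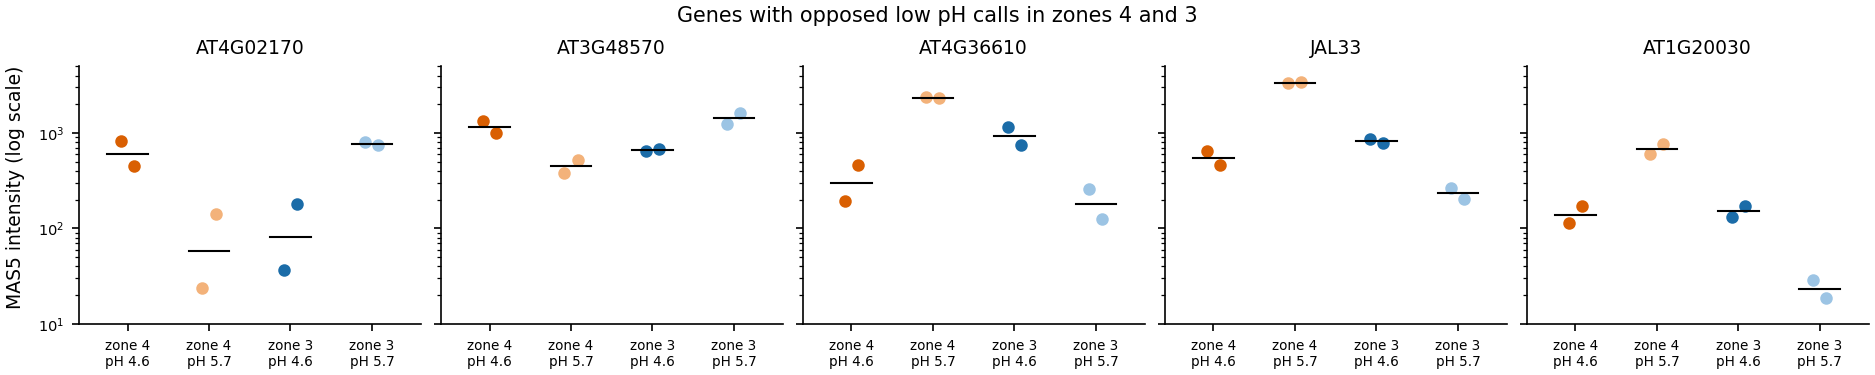
MAS5 intensity (log axis) of the 5 named genes with opposed low pH calls, 1 point for each array and a bar at the mean of the log values, in zone 4 at pH 4.6 and pH 5.7 (orange shades) and zone 3 at pH 4.6 and pH 5.7 (blue shades). AT4G02170 and AT3G48570 are higher at pH 4.6 in zone 4 and lower in zone 3, and AT4G36610, JAL33 and AT1G20030 do the reverse, with no overlap between the 2 pH values in either zone.

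Of the few suberin deposition genes tested, some rose with acid in zone 3. The list held 25 genes, 4 of which were tested; at pH 5.7 all 4 were called higher in zone 4 than in zone 3. In zone 3, 3 of the 4 rose with acid, in zone 4 0 passed (2 up and 1 down at an unadjusted p below 0.05), and 2 passed the test of the difference, both negative. Of all 15951 probe sets tested, 1099 were called higher in zone 4 at pH 5.7, 317 rose in zone 3 and 177 had a negative difference. The median difference of the 4 was -3.42, beside -0.01 over all probe sets tested. AT2G23540, a GDSL lipase family gene known from suberin polymerisation in the endodermis, had 17538 and 15647 in zone 4 at pH 4.6, against 8146 and 6369 at pH 5.7. Its zone 3 intensities were 5215 and 6564 at pH 4.6, against 46.3 and 104 at pH 5.7. In acid, zone 3 thus reached about the level of zone 4 at standard pH, from a low level of its own, and the highest level was that of zone 4 in acid. The change was 1.20 ± 0.43 in zone 4 (adjusted p = 0.151) and 6.09 ± 0.43 in zone 3 (adjusted p = 2.35e-06), a difference of -4.89 ± 0.60 (adjusted p = 0.00118).

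AT1G74460, another GDSL lipase known from suberin polymerisation, had 2736 and 3254 in zone 4 at pH 4.6, against 5172 and 5364 at pH 5.7. In zone 3 it had 3023 and 2614 at pH 4.6, against 224 and 195 at pH 5.7. The zones overlapped in acid and were widely separated at standard pH. The change was -0.82 ± 0.49 in zone 4 (adjusted p = 0.457) and 3.65 ± 0.49 in zone 3, a difference of -4.47 ± 0.70 (adjusted p = 0.00594). AT5G37690, also a GDSL lipase, rose in zone 3 (3.24 ± 0.64) and had a change of 1.74 ± 0.64 in zone 4 that did not pass. Its difference of -1.50 had a 95% interval of -3.44 to 0.43. AT2G48130, a lipid transfer protein with a membrane anchor, had a change of -1.27 in zone 4 and 1.10 in zone 3 that did not pass (adjusted p = 0.232 and 0.301) and a difference of -2.38 (adjusted p = 0.118). AT2G23540 and AT1G74460 kept their call without any 1 array, and without the 4 arrays of high plastid mean their differences were -5.37 (adjusted p = 0.023) and -4.45 (adjusted p = 0.083).

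AT3G50400, a further GDSL lipase family gene, and the hydroxyproline-rich glycoprotein family genes AT4G38080 and AT5G09480 were picked out after their values were seen, among the 8 named genes of largest difference in each direction that no rule had named. AT4G38080 had 18090 and 14438 in zone 4 at pH 4.6, against 8956 and 7303 at pH 5.7, and 5101 and 4934 in zone 3 at pH 4.6, against 139 and 136 at pH 5.7. AT5G09480 had 9140 and 7850 in zone 4 at pH 4.6, against 3659 and 3401 at pH 5.7, and 2408 and 2756 in zone 3 at pH 4.6, against 34.7 and 86.4 at pH 5.7. Both followed the order of AT2G23540: zone 4 in acid highest, then zone 4 at standard pH, then zone 3 in acid, and zone 3 at standard pH far below. Their differences were -4.04 ± 0.62 and -3.91 ± 0.59 (adjusted p = 0.00477 and 0.00449). AT3G50400 had 626 and 1031 in zone 4 at pH 4.6, against 1461 and 1208 at pH 5.7. The zone 3 arrays had 3351 and 2767 at pH 4.6, against 275 and 316 at pH 5.7, so that zone 3 in acid was the highest group. Its difference was -4.01 ± 0.73 (adjusted p = 0.0119), lost without zone 4 pH 4.6 replicate 1, zone 4 pH 5.7 replicate 1 or zone 3 pH 4.6 replicate 1 (adjusted p up to 0.0914). AT5G09480 kept its call without the 4 arrays of high plastid mean, and AT4G38080 and AT3G50400 then had adjusted p of 0.0651 and 0.101.

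Class III peroxidases went both ways. Of 73 listed, 40 were tested, and 1 had a positive and 6 a negative difference, beside 0.652% and 1.11% of all 15951 probe sets tested. The median of the 40 was -0.16. In zone 4, 2 rose and 6 fell with acid, and in zone 3, 3 rose and 2 fell. Of all probe sets tested, 226 rose and 252 fell in zone 4, and 317 rose and 146 fell in zone 3. The 7 peroxidases called fell into 3 patterns.

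In the first pattern, acid brought a rise in zone 3 to levels near those of zone 4. AT2G35380 had 1818 and 1769 in zone 4 at pH 4.6, against 1175 and 1231 at pH 5.7. In zone 3 it had 634 and 874 at pH 4.6, against 9.26 and 24.7 at pH 5.7, where it was close to the bottom of the scale. The change was 0.57 ± 0.48 in zone 4 and 4.57 ± 0.48 in zone 3 (difference -4.0 ± 0.68, adjusted p = 0.00888). AT1G68850 had 753 and 1094 in zone 4 at pH 4.6, against 2020 and 1558 at pH 5.7. Zone 3 had 1393 and 802 at pH 4.6, against 112 and 73.1 at pH 5.7. The zones overlapped in acid and did not at standard pH. The change was -0.95 ± 0.45 in zone 4 and 3.33 ± 0.45 in zone 3 (difference -4.28 ± 0.64, adjusted p = 0.00449). AT1G68850 kept its call without any 1 array, and AT2G35380 lost it without zone 4 pH 4.6 replicate 1 (adjusted p = 0.067).

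In the second pattern, acid brought a fall in zone 4. AT4G36430 had 134 and 207 in zone 4 at pH 4.6, against 2620 and 2076 at pH 5.7. Its zone 3 intensities were 3744 and 3979 at pH 4.6, against 1271 and 1834 at pH 5.7. Zone 4 in acid was by far the lowest of the 4 groups and zone 3 in acid the highest. The change was -3.68 ± 0.38 in zone 4 and 1.33 ± 0.38 in zone 3 (adjusted p = 0.0707), a difference of -5.01 ± 0.53 (adjusted p = 0.000372). This call held without any 1 array and without the 4 arrays of high plastid mean (-5.39, adjusted p = 0.023). AT1G44970 had 17.4 and 22.0 in zone 4 at pH 4.6, against 595 and 544 at pH 5.7. In zone 3 it had 1503 and 1400 at pH 4.6, against 1547 and 1367 at pH 5.7. Its zone 3 groups overlapped, and the drop was in zone 4 (-4.04 ± 0.68). AT2G37130 had 634 and 1281 in zone 4 at pH 4.6, against 11557 and 14963 at pH 5.7. The zone 3 arrays had 4715 and 3646 at pH 4.6, against 4215 and 3713 at pH 5.7. Among the 4 groups zone 4 was thus the highest at standard pH and the lowest in acid. AT5G14130 had 66.9 and 140 in zone 4 at pH 4.6, against 1294 and 1101 at pH 5.7, with 394 and 303 in zone 3 at pH 4.6, against 235 and 220 at pH 5.7.

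The differences of AT1G44970 (-4.03 ± 0.96, adjusted p = 0.0442), AT2G37130 (-3.91 ± 0.90, adjusted p = 0.0384) and AT5G14130 (-3.98 ± 0.87, adjusted p = 0.0291) were close to the threshold. Each of these 3 lost its call without any 1 of the 8 arrays other than zone 3 pH 5.7 replicate 1, with adjusted p up to 0.179 for AT1G44970, 0.212 for AT2G37130 and 0.17 for AT5G14130. The last pattern had 1 member: a peroxidase that rose in zone 4. AT1G49570 had 1299 and 1564 in zone 4 at pH 4.6, against 55.6 and 143 at pH 5.7. In zone 3 it had 31.7 and 54.2 at pH 4.6, against 41.7 and 109 at pH 5.7. Only zone 4 in acid was high, and the other 3 groups lay between 31.7 and 143. The change was 3.75 ± 0.59 in zone 4 and -0.56 ± 0.59 in zone 3 (difference 4.31 ± 0.83, adjusted p = 0.0176), lost without either zone 4 pH 4.6 array, zone 4 pH 5.7 replicate 1 or zone 3 pH 4.6 replicate 1 (adjusted p up to 0.0998). Without the 4 arrays of high plastid mean AT1G68850 (-4.60) kept its call, and AT2G35380, AT1G44970, AT2G37130, AT5G14130 and AT1G49570 did not (adjusted p from 0.0754 to 0.223), though their differences of -4.08, -4.06, -3.82, -4.24 and 4.61 were about as large as before.

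**Figure D4:**
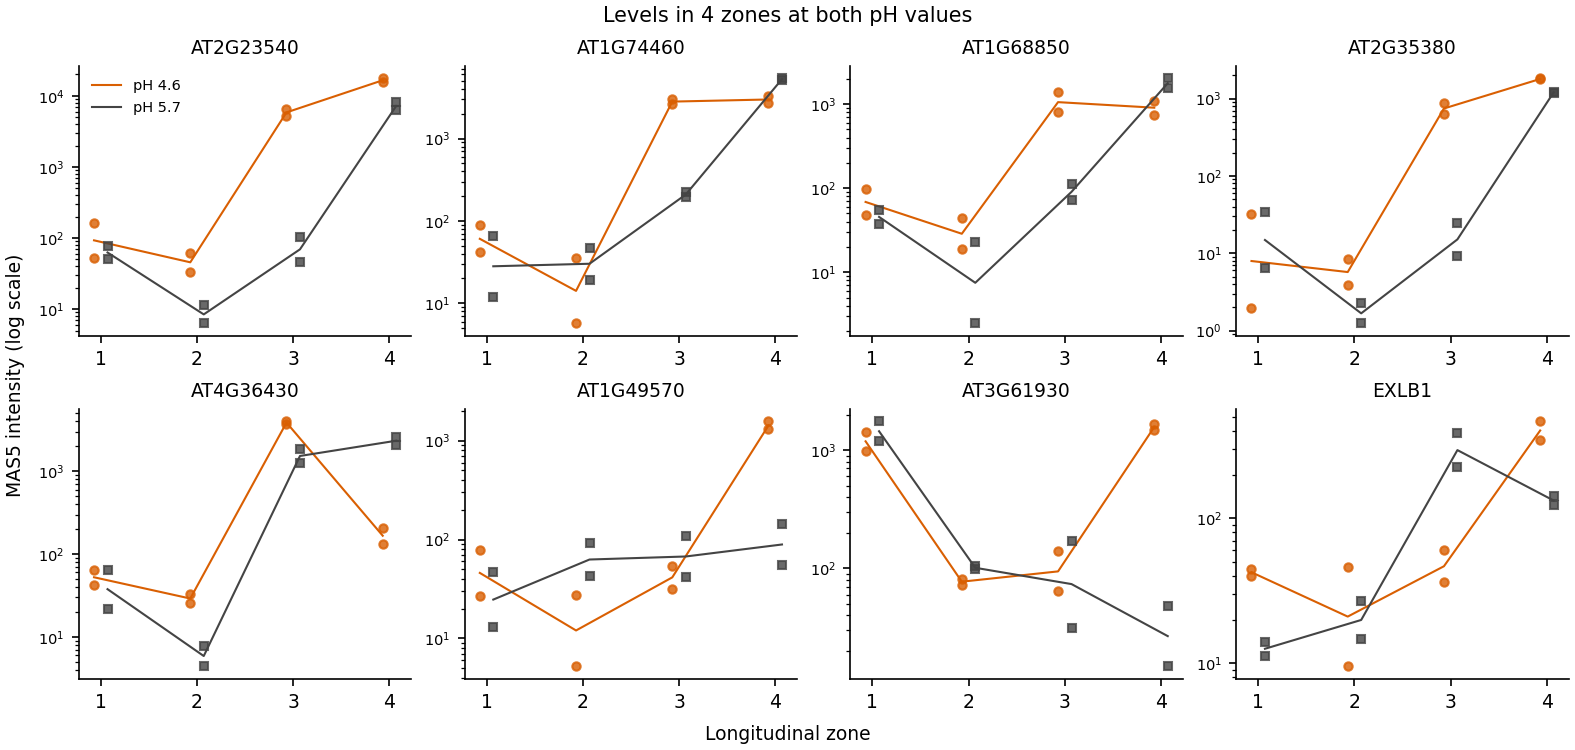
MAS5 intensity (log axis) in longitudinal zones 1 to 4 at pH 4.6 (orange circles) and pH 5.7 (grey squares), 1 point for each array, with lines through the means of the log values. AT2G23540, AT1G74460, AT1G68850 and AT2G35380 separate the pH values most in zone 3, where pH 5.7 is low. AT4G36430, AT1G49570 and AT3G61930 separate them most in zone 4, AT4G36430 lower at pH 4.6 and AT1G49570 and AT3G61930 higher. EXLB1 is higher at pH 4.6 in zone 4 and lower in zone 3, with the larger change in zone 3.

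Genes of the Casparian strip gave no call for the difference, which 1.76% of all probe sets tested had. Of 25 listed 6 were tested and 0 passed in limma, which for so few genes is near that share. At an unadjusted p below 0.05, 1 was up and 2 were down, beside 1143 and 1516 of all 15951 probe sets tested. The median difference of the 6 was 0.06. Both genes nearest the threshold were dirigent family members, proteins that steer the coupling of lignin precursors. AT4G13580 had 232 and 139 in zone 4 at pH 4.6, against 6782 and 7825 at pH 5.7, and 8451 and 8643 in zone 3 at pH 4.6, against 14218 and 25113 at pH 5.7. AT2G39430 had 20.4 and 40.2 in zone 4 at pH 4.6, against 994 and 580 at pH 5.7, and 2638 and 2171 in zone 3 at pH 4.6, against 2831 and 5125 at pH 5.7. Both were lower in acid in both zones, with the larger drop in zone 4. In zone 3 both had a change that did not pass (-1.14 and -0.67, adjusted p = 0.452 and 0.617). Their differences were -4.07 (95% interval -6.25 to -1.90, adjusted p = 0.0569) and -3.43 (-5.21 to -1.66, adjusted p = 0.050), the second the first value outside the threshold. GSO1, a receptor kinase needed to close the strip, had a difference of 1.84 (adjusted p = 0.101). In the whole dirigent family 1 of 10 tested passed: AT2G21100, with 2767 and 2156 in zone 4 at pH 4.6, against 8106 and 11109 at pH 5.7, and 6875 and 6691 in zone 3 at pH 4.6, against 4058 and 4801 at pH 5.7. It fell in zone 4 (-1.95 ± 0.42), was 0.62 ± 0.42 in zone 3, and had a difference of -2.57 (adjusted p = 0.0417). Any 1 of 7 arrays left out ended that call (adjusted p up to 0.153), the exception being zone 3 pH 5.7 replicate 1.

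Of 25 root hair genes listed 5 were tested, 3 fell in zone 4 and 3 in zone 3, and 0 passed the limma test of the difference, with 0 at unadjusted p under 0.05. Of all 15951 probe sets tested, 252 fell in zone 4, 146 fell in zone 3 and 281 (1.76%) passed the test of the difference. For 5 genes, 0 passing is near that last share. EXPA7, an expansin of root hair cells, had 4.19 and 19.2 in zone 4 at pH 4.6, against 81.6 and 176 at pH 5.7, and 498 and 212 in zone 3 at pH 4.6, against 1394 and 3138 at pH 5.7. Each zone lost signal in acid, and at either pH zone 4 lay below zone 3. The difference was 0.26, with a 95% interval of -1.56 to 2.09. The intervals were -2.0 to 1.68 for the expansin EXPA18 and -2.34 to 0.88 for the peroxidase AT4G26010. They are wide enough to hold a difference of more than 1 log2 unit, so like responses are not shown.

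Expansins and xyloglucan-remodelling enzymes had 1 call among 22 tested, beside 1.76% of all probe sets tested. EXLB1 (AT4G17030), an expansin-like gene, had 466 and 350 in zone 4 at pH 4.6, against 142 and 124 at pH 5.7. Zone 3 had 60.4 and 36.1 at pH 4.6, against 226 and 387 at pH 5.7. It was higher in zone 4 than in zone 3 in acid and lower at standard pH, with no overlap at either. It fell in zone 3 (-2.31 ± 0.46), and its change of 1.49 ± 0.46 in zone 4 did not pass (adjusted p = 0.0923). The difference was 3.80 ± 0.64 (adjusted p = 0.00888), and 0.0688 without zone 4 pH 4.6 replicate 1. Without the 4 arrays of high plastid mean it was 3.07 (adjusted p = 0.122).

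Further genes changed in zone 3 and had a log2 change under 0.50 in zone 4. AT2G22510, of a hydroxyproline-rich glycoprotein family, had 916 and 1053 in zone 4 at pH 4.6, against 806 and 635 at pH 5.7. Its zone 3 intensities were 544 and 471 at pH 4.6, against 2.79 and 5.75 at pH 5.7. It was near the bottom of the scale in zone 3 at standard pH and high in the other 3 groups. The change was 0.45 ± 0.37 in zone 4 and 4.69 ± 0.37 in zone 3 (difference -4.24 ± 0.52, adjusted p = 0.00118), and the call held without any 1 array. The aspartyl protease gene AT2G03200 had 1230 and 1359 in zone 4 at pH 4.6, against 1470 and 1300 at pH 5.7, and 645 and 630 in zone 3 at pH 4.6, against 65.3 and 47.8 at pH 5.7. AT4G16260, a glucanase of glycosyl hydrolase family 17, had 1504 and 1905 in zone 4 at pH 4.6, against 1032 and 2360 at pH 5.7, and 1122 and 1282 in zone 3 at pH 4.6, against 120 and 147 at pH 5.7. In both, zone 3 at standard pH was the low group and the zone 4 groups overlapped. Their differences were -3.28 ± 0.77 and -2.91 ± 0.59 (adjusted p = 0.0419 and 0.0205).

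The cysteine protease gene CP1 (AT4G36880) had 168 and 150 in zone 4 at pH 4.6, against 134 and 190 at pH 5.7, and 1748 and 838 in zone 3 at pH 4.6, against 124 and 77.1 at pH 5.7. Unlike the genes before it, it was not high in zone 4: the high group was zone 3 in acid. CP1 rose in zone 2 as well (3.90 ± 0.42), and its difference between zones 4 and 3 was -3.43 ± 0.60 (adjusted p = 0.00984). Among the falls, GSTU28 (AT1G53680), a glutathione S-transferase, had between 41.5 and 49.8 on the 6 arrays of zone 4 and of zone 3 at pH 4.6, against 420 and 770 in zone 3 at pH 5.7. RALFL22, for a RALF peptide of the kind that raises the pH of the cell wall space, had 1570 and 1208 in zone 4 at pH 4.6, against 721 and 1452 at pH 5.7, and 1014 and 1513 in zone 3 at pH 4.6, against 7453 and 5065 at pH 5.7. AT3G61300, with C2 domains, had 94.4 and 104 in zone 4 at pH 4.6, against 83.6 and 174 at pH 5.7, and 27.6 and 72.4 in zone 3 at pH 4.6, against 359 and 911 at pH 5.7. In all 3, zone 3 at standard pH stood above every other group. Their differences were 3.26 ± 0.63, 2.72 ± 0.56 and 2.99 ± 0.72 (adjusted p = 0.0165, 0.0229 and 0.0476).

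Of the 7 genes with a change in zone 3 alone, AT2G22510 kept its call for the difference without any 1 array. CP1 lost it without replicate 1 of zone 4 or of zone 3 at pH 4.6 (adjusted p up to 0.0663). RALFL22 lost it without either zone 4 pH 4.6 array, zone 4 pH 5.7 replicate 1 or zone 3 pH 4.6 replicate 1 (up to 0.136). AT4G16260 lost it without either pH 4.6 array of either zone or zone 4 pH 5.7 replicate 2 (up to 0.13). GSTU28 lost it without any 1 array but those of zone 3 at pH 5.7 (up to 0.0872), and AT2G03200 and AT3G61300 without any 1 array but zone 3 pH 5.7 replicate 1 (up to 0.182 and 0.2). AT2G22510 and RALFL22 kept their call without the 4 arrays of high plastid mean, and the adjusted p of the other 5 was then between 0.0651 and 0.185.

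Other genes changed in zone 4 and had a log2 change under 0.50 in zone 3. AT3G61930 had 1490 and 1655 in zone 4 at pH 4.6, against 14.8 and 48.2 at pH 5.7. Zone 3 had 63.9 and 139 at pH 4.6, against 31.5 and 172 at pH 5.7. It was high in zone 4 in acid and low in the other 3 groups. In zone 1 it was high at both pH values, with 1430 and 987 at pH 4.6, against 1748 and 1195 at pH 5.7. The change was 5.16 ± 0.53 in zone 4 and 0.24 ± 0.53 in zone 3 (difference 4.92 ± 0.75, adjusted p = 0.00477), and the call held without any 1 array and without the 4 arrays of high plastid mean. AT4G28460 had 1381 and 2099 in zone 4 at pH 4.6, against 144 and 122 at pH 5.7, and 251 and 286 in zone 3 at pH 4.6, against 120 and 745 at pH 5.7 (difference 3.71 ± 0.78, adjusted p = 0.0245).

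A pair of genes for cysteine- and histidine-rich C1 domain proteins, AT5G43030 and AT2G02680, had their low group in zone 4 at standard pH. AT5G43030 had 294 and 225 in zone 4 at pH 4.6, against 2.19 and 15.8 at pH 5.7, and 204 and 155 in zone 3 at pH 4.6, against 241 and 128 at pH 5.7. AT2G02680 had 661 and 388 in zone 4 at pH 4.6, against 30.3 and 61.9 at pH 5.7, and 145 and 276 in zone 3 at pH 4.6, against 210 and 244 at pH 5.7. In both the zone 3 groups overlapped. Their differences were 3.49 ± 0.63 and 3.29 ± 0.70 (adjusted p = 0.0111 and 0.0259). Another such gene, AT1G55390, was picked out after its values were seen: it had 804 and 470 in zone 4 at pH 4.6, against 9.56 and 38.8 at pH 5.7, and 60.1 and 168 in zone 3 at pH 4.6, against 218 and 216 at pH 5.7 (difference 5.05 ± 0.75, adjusted p = 0.00449).

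Besides the peroxidases AT1G44970 and AT2G37130, the falls in zone 4 alone included a regulator and a peptidase. The gene labelled tny (AT5G25810), for the AP2/ERF transcription factor TINY, had 319 and 429 in zone 4 at pH 4.6, against 3371 and 3123 at pH 5.7, and 1435 and 821 in zone 3 at pH 4.6, against 1611 and 1065 at pH 5.7. The gene scpl28 (AT2G35770), for a serine carboxypeptidase-like protein, had 132 and 161 in zone 4 at pH 4.6, against 859 and 990 at pH 5.7, and 408 and 303 in zone 3 at pH 4.6, against 288 and 283 at pH 5.7. In both, zone 4 was the highest of the 4 groups at standard pH and the lowest in acid. Their differences were -2.81 ± 0.48 and -2.82 ± 0.46 (adjusted p = 0.00888 and 0.00679). Calls were lost without zone 4 pH 4.6 replicate 1 by all genes named for a change in zone 4 alone, other than AT3G61930. For tny they were also lost without replicate 1 of zone 4 pH 5.7 or of zone 3 pH 4.6 (up to 0.0688), and for AT5G43030 without zone 4 pH 5.7 replicate 1 (up to 0.0792). AT2G02680 lost its call without either zone 4 pH 4.6 array, zone 4 pH 5.7 replicate 1, zone 3 pH 4.6 replicate 1 or zone 3 pH 5.7 replicate 2 (up to 0.163), and AT4G28460 without any 1 array but those of zone 3 at pH 5.7 (up to 0.111). AT3G61930, tny and scpl28 kept their call without the 4 arrays of high plastid mean, while AT4G28460, AT5G43030 and AT2G02680 then had adjusted p of 0.083, 0.0515 and 0.0912.

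**Figure D5:**
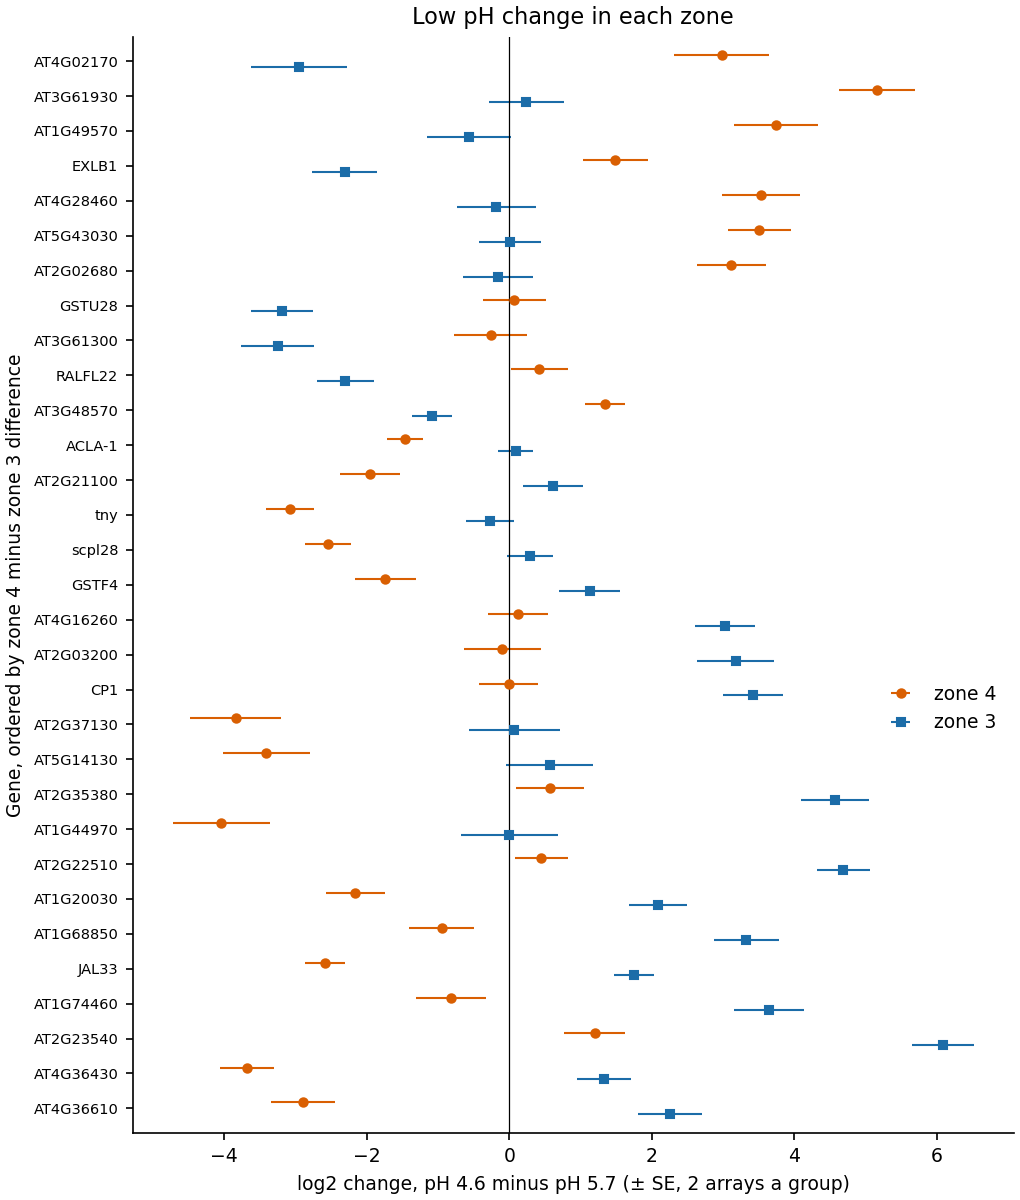
Log2 change with SE at pH 4.6 against pH 5.7 in zone 4 (orange circles) and zone 3 (blue squares). The 31 genes are those named by the rules and lists, ordered by the zone 4 minus zone 3 difference. Each group has 2 arrays, and the SE comes from the limma fit over all arrays of the series, not from those 2 alone. AT4G02170 at the top has 2.98 in zone 4 and -2.95 in zone 3, and AT4G36610 at the bottom has -2.90 and 2.26; in most of the others 1 of the 2 zones lies near 0.

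In the remaining lists few members were called, as were few of all probe sets tested (1.76%). Of 12 glutathione S-transferases, 2 were: GSTU28 above, and GSTF4 (AT1G02950), with 118 and 106 in zone 4 at pH 4.6, against 462 and 365 at pH 5.7, and 180 and 208 in zone 3 at pH 4.6, against 60.9 and 104 at pH 5.7 (difference -2.86 ± 0.61, adjusted p = 0.0256). Of 8 tested enzymes of the glyoxylate cycle, formate and fermentation, 1 passed. The value was negative in all 8, with a median of -1.66, as it was in 8017 of all 15951 probe sets. The gene that passed was ACLA-1 (AT1G10670), a subunit of ATP-citrate lyase, which makes cytosolic acetyl-CoA. It had 1103 and 1270 in zone 4 at pH 4.6, against 3652 and 2938 at pH 5.7, and 3127 and 3639 in zone 3 at pH 4.6, against 3834 and 2635 at pH 5.7 (difference -1.54 ± 0.36, adjusted p = 0.0419). The zone 3 groups overlapped, and the fall was in zone 4. ICL, a glyoxylate cycle enzyme that splits isocitrate, rose in both zones, by 2.22 ± 0.38 in zone 4 and 4.16 ± 0.38 in zone 3, and its difference of -1.94 did not pass (adjusted p = 0.0791). GSTF4 lost its call without any 1 array but those of zone 3 at pH 5.7 (up to 0.128), and ACLA-1 without any 1 array but zone 3 pH 5.7 replicate 1 (up to 0.211). Both also lost it without the 4 arrays of high plastid mean (adjusted p = 0.102 and 0.157).

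Serine carboxypeptidase-like genes had 1 call among 22 tested, which was scpl28. Of all 15951 probe sets tested in limma, 1.76% were called, and 1143 were up and 1516 down at unadjusted p under 0.05. In lists as small as those that follow, 0 calls is near that share. The test of the difference called 0 of 38 UDP-glycosyltransferases in limma, with 2 up and 8 down at an unadjusted p below 0.05. It also called 0 of 5 genes of phenylpropanoid and lignin synthesis (0 up and 3 down at an unadjusted p below 0.05), 0 of 4 of flavonoid synthesis (0 and 2), 0 of 7 of the response to mitochondrial dysfunction (1 and 1), 0 of 7 of iron deficiency (2 and 0) and 0 of 3 proton pump genes (0 and 0). Cytochromes P450 (10 tested), SWEET transporters (10) and trichome birefringence-like genes (18) likewise had 0 calls, with 3, 0 and 2 members past an unadjusted p of 0.05. Within these, AT2G21640, known to respond to mitochondrial dysfunction, had 703 and 616 in zone 4 at pH 4.6, against 26.1 and 35.8 at pH 5.7, and 62.8 and 84.9 in zone 3 at pH 4.6, against 4.74 and 68.0 at pH 5.7. It rose in zone 4 (3.85 ± 0.52), had a change of 1.10 ± 0.52 in zone 3 and a difference of 2.75 (95% interval 1.18 to 4.33, adjusted p = 0.0701).

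The same difference can be read as the gap between the zones at pH 4.6 minus that at pH 5.7, from the same 8 arrays. Zone 4 differed from zone 3 in 701 probe sets at pH 4.6 (4.39%), 314 higher and 387 lower, and in 1974 at pH 5.7 (12.4%), 1099 higher and 875 lower. Of the 177 probe sets with a negative difference, 4 were called higher and 41 lower in zone 4, relative to zone 3, at pH 4.6, while 140 were higher at pH 5.7. Of the 104 with a positive difference, 38 were called higher in zone 4 at pH 4.6 and 64 lower at pH 5.7. The median gap of the negative ones was -0.70 at pH 4.6 and 1.82 at pH 5.7, and that of the positive ones was 1.12 at pH 4.6 and -1.63 at pH 5.7. Without single arrays the count at pH 4.6 lay between 191 and 1034 and that at pH 5.7 between 642 (without zone 4 pH 5.7 replicate 1) and 3507 (without zone 3 pH 5.7 replicate 1). The gap was smaller in size at pH 4.6 than at pH 5.7 in 200 of the 281, with 63 of them positive and 137 negative differences. It turned its sign in 225 of the 281. Over all 15951 probe sets these counts were 9695 and 6437. A large difference itself favours gaps of opposite sign at the 2 pH values, so these counts are partly set by how the 281 were called. Both readings also share the arrays at each pH and are not independent of each other.

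In zones 2 and 1 few of the 281 probe sets were called, though a larger share than of all probe sets tested. The low pH test called 5 of them in zone 2 and 5 in zone 1, where it called 67 (0.420%) and 112 (0.702%) of all probe sets tested. Their median log2 change in zones 2 and 1 was 0.14 and 0.39 for the 104 positive ones, and 0.01 and -0.06 for the 177 negative ones. Of the genes named here, CP1 and ICL (2.42 ± 0.38, adjusted p = 0.00986) were called in zone 2 and JAL33 in zone 1. Among the genes that rose in zone 3, AT2G23540 lay between 6.30 and 162 on the 8 arrays of zones 1 and 2 and AT2G35380 between 1.24 and 34.2, below their zone 3 level in acid. Another peroxidase that rose in zone 3, AT5G40150 (1.55, adjusted p = 0.0352), was not low there. Its difference of -1.39 did not pass (adjusted p = 0.186), so it is not among the 281. It had 96.4 to 204 in zones 1 and 2, with 167 and 147 in zone 3 at pH 4.6, against 56.3 and 31.9 at pH 5.7.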

How the data were processed

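Levels are MAS5 signal intensities per probe set of an Affymetrix array, as the authors deposited them, per the submitters' processing notes (MAS5, version not given in the sources used here). Every array had a trimmed mean of 249.9. Depth does not apply to arrays; the 2 arrays in each of 8 groups limit precision. Of 22746 non-control probe sets, 13513 had 1 gene, 503 several and 8730 were not listed in the platform annotation used; 13436 were matched to RefSeq TAIR10.1. Values were analysed as log2(intensity + 16), which understates the change of dim probe sets, without further normalization. A probe set was tested if any zone's mean was at or over the 40th percentile of all values (6.05), leaving 15951, of which 8843 stood for a named gene. limma 3.58.1 in R 4.3.3 fitted 8 group means over all 16 arrays (lmFit and eBayes with trend; residual degrees of freedom 8, prior 7.27), with two-sided tests and Benjamini-Hochberg adjustment over all probe sets tested at 0.05. The script was tested on simulated data. No single gene was put to an exact permutation test, whose smallest p with 2 arrays in each group is 0.333.

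The rule for named genes took up to 10 called in both zones with opposite signs in each direction, then 4 rises and 4 falls called in 1 zone with a change under 0.50 in the other, and list members with a call. A gene called with the same sign in both zones and in the difference would have been named, but there was none. Where under 4 qualified, all were named. Members and lists were chosen with earlier results of these data known, and lists for gene families and organelle genomes were set up after the annotation was seen. A further 16 genes were named after their values were seen. Alternatives were other pseudocounts, filters and scalings, fewer arrays in the fit, no intensity trend and a replicate block.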

Additional observations from a re-analysis of the deposited data

Results flagged for a closer look

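The difference between the low pH responses of zone 4 and zone 3 was itself tested in limma, and the responses differed in 281 probe sets. The values below are the zone 4 minus zone 3 differences on the log2 scale, all past an adjusted p of 0.05, for the 47 genes named. Positive differences, with the transcript going further up or less far down in zone 4, were found in AT4G02170 (5.93), AT2G41730 (5.15), AT1G55390 (5.05), AT3G61930 (4.92), AT5G28630 (4.79), AT1G49570 (4.31), AT1G73120 (4.27) and AT5G53880 (4.20). Smaller positive ones were those of AT1G77640 (4.09), AT5G38910 (3.98), AT5G64870 (3.94), EXLB1 (3.80), AT4G28460 (3.71), AT5G43030 (3.49), AT2G02680 (3.29) and GSTU28 (3.26). Also positive were AT3G61300 (2.99), RALFL22 (2.72) and AT3G48570 (2.43).

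Negative differences were largest in size in AT4G36610 (-5.16), AT4G36430 (-5.01), AT2G23540 (-4.89), AT4G17280 (-4.57), AT1G74460 (-4.47), JAL33 (-4.33), AT1G68850 (-4.28) and AT1G20030 (-4.25). Next came AT2G22510 (-4.24), AT1G30750 (-4.11), AT4G38080 (-4.04), AT1G44970 (-4.03), AT3G50400 (-4.01), AT2G35380 (-4.0), AT5G14130 (-3.98) and AT3G23570 (-3.94). They were followed by AT5G09480 (-3.91), AT2G37130 (-3.91), AT2G19200 (-3.80), AT1G49960 (-3.78), CP1 (-3.43), AT2G03200 (-3.28), AT4G16260 (-2.91) and GSTF4 (-2.86). Below these were scpl28 (-2.82), tny (-2.81), AT2G21100 (-2.57) and ACLA-1 (-1.54). With 2 arrays a group, no single array was tested as standing apart from its group.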

How the results depend on the processing

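None of the 47 genes with a called difference named here changed its sign under 10 alternative settings or with any 1 array left out (1 gene was not tested under the 60th percentile filter); genes named without such a call were not put through them. The 281 calls became 160 with a pseudocount of 1 and 521 with a pseudocount of 64, and 90 without the 4 arrays of high plastid mean. They numbered 240 to 351 with no filter, a 60th percentile filter, median centring or quantile normalization, 242 with the arrays of zones 3 and 4 alone and 201 without an intensity trend. With a replicate block they numbered 320, and all 47 named genes kept their call. Deviations of same-numbered arrays correlated between -0.26 and 0.42 (9 of 28 pairs over 0.1, and 3 of 6 within zones 3 and 4). The 4 arrays of high plastid mean were all replicate 2. Whether the numbers pair the arrays cannot be told from these correlations. The 11 opposed probe sets were 4 and 37 with those pseudocounts, 7 with no filter, 21 with the 60th percentile filter, 7 with median centring, 17 with quantile normalization, 5 without the trend and 2 without the 4 arrays; with the block they were 12. In zone 4, 295 were called without the 4 arrays. In zone 3, 299 were called with a pseudocount of 1, 282 from zones 3 and 4 alone and 88 without the 4 arrays. Zone 4 against zone 3 gave 426 at pH 4.6 and 900 at pH 5.7 without the 4 arrays. With 1 array left out, calls ranged from 37 to 1257 for the difference, 1 to 49 for opposed probe sets, 66 to 820 in zone 4, 92 to 1552 in zone 3, 191 to 1034 between the zones at pH 4.6 and 642 to 3507 at pH 5.7. Of the 47 genes, 24 kept their call with a pseudocount of 1 and 18 without the 4 arrays. The cause was not tested, beyond fewer arrays in the fits that leave arrays out. Dim groups, such as AT2G22510 in zone 3 at pH 5.7, lie near the pseudocount of 16, so their log2 changes are understated.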

Other observations

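A further 12 genes with large differences between the 2 zones were chosen after their values were seen. AT1G73120 had 7911 and 5281 in zone 4 at pH 4.6, against 114 and 41.7 at pH 5.7, and 70.4 and 251 in zone 3 at pH 4.6, against 47.7 and 8.07 at pH 5.7. It was higher in acid in both zones, far more in zone 4 (6.22 ± 0.65) than in zone 3 (1.96 ± 0.65). The zone 3 change did not pass (adjusted p = 0.122). AT2G41730 had 8842 and 7907 in zone 4 at pH 4.6, against 440 and 407 at pH 5.7, and 391 and 295 in zone 3 at pH 4.6, against 340 and 1220 at pH 5.7. Its zone 3 groups overlapped. AT1G77640, of the ERF family of transcription factors, had 1318 and 776 in zone 4 at pH 4.6, against 71.7 and 313 at pH 5.7, and 172 and 727 in zone 3 at pH 4.6, against 1406 and 768 at pH 5.7. AT5G64870, a flotillin-like gene of membrane domains, had 104 and 125 in zone 4 at pH 4.6, against 7.97 and 30.6 at pH 5.7, and 85.4 and 137 in zone 3 at pH 4.6, against 537 and 419 at pH 5.7. In both of these the zones went in opposite directions without overlap, and neither low pH change passed in either zone (adjusted p from 0.0503 to 0.269). The germin-like gene AT5G38910 had 165 and 345 in zone 4 at pH 4.6, against 1.07 and 29.7 at pH 5.7, and between 3.49 and 43.6 in zone 3.

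On the negative side, AT1G30750 had 112 and 93.0 in zone 4 at pH 4.6, against 2970 and 3928 at pH 5.7, and 4691 and 3982 in zone 3 at pH 4.6, against 7608 and 6987 at pH 5.7. It was lower in acid in both zones and far lower in zone 4. Its zone 3 change of -0.75 ± 0.67 did not pass (adjusted p = 0.622). AT1G49960, of the xanthine and uracil permease family, had 1531 and 1438 in zone 4 at pH 4.6, against 864 and 974 at pH 5.7, and 684 and 731 in zone 3 at pH 4.6, against 33.7 and 5.44 at pH 5.7. AT3G23570, a dienelactone hydrolase family gene, had 276 and 231 in zone 4 at pH 4.6, against 493 and 514 at pH 5.7, and 1031 and 839 in zone 3 at pH 4.6, against 184 and 55.5 at pH 5.7. AT4G17280 had 148 and 193 in zone 4 at pH 4.6, against 1517 and 1900 at pH 5.7, and 1255 and 1478 in zone 3 at pH 4.6, against 933 and 287 at pH 5.7. In AT3G23570 and AT4G17280 the zones changed places: zone 4 lay below zone 3 at pH 4.6 and above it at pH 5.7. Of the 12 genes chosen in this way and not named in the report, AT2G41730 and AT3G23570 kept their call without any 1 array.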
